A study of Drosophila melanogaster with 8 samples.

Results

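The genes described here are those encoding the proteins of the mitochondrial ribosome in Drosophila melanogaster, taken as every gene whose symbol begins with mRpL or mRpS followed by a number. The rule found 73 genes among the 16727 gene symbols listed, 47 named for the large subunit (mRpL) and 26 for the small subunit (mRpS). Subunits were assigned by symbol alone, so mRpS30, found in the large subunit in mammals, is counted with the small subunit. All 73 were measured and tested. The rule used symbols and no measured value.

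Mitochondria keep a small genome and translate its few protein-coding messages on ribosomes of their own. The ribosomal RNAs come from that genome, whereas every protein of the mitochondrial ribosome is encoded in the nucleus, made in the cytosol and imported. The messages translated there encode subunits of the respiratory chain and the ATP synthase, so these ribosomes are needed for oxidative phosphorylation. Some of their proteins have counterparts in the bacterial ribosome and others were added in the mitochondrial lineage.

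Poly(A) RNA from fly heads was sequenced for 2 genotypes and 2 times of day, with 2 libraries in each of the 4 groups. The control is labelled wild type, strain w1118, and the mutant vriΔ679 (written vri679 here), an allele of vrille (vri), which encodes a bZIP repressor of the circadian clock. All flies were kept at 25 °C in cycles of 12 h light and 12 h dark, entrained for 3 days, and collected at ZT2, in the light, or at ZT14, in the dark (ZT, zeitgeber time, counts hours from lights on). The labels give neither sex nor age, state no separate cultures for replicates, and do not say that the stocks share a genetic background, so a genotype difference here is a difference between the stocks.

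The check of the mutated gene set a pair of libraries apart. The long vri transcripts stood at 9.66 and 10.7 FPKM in wild type at ZT2 and 82.8 and 71.9 at ZT14, at 0.0183 and 0.0118 in vri679 at ZT2, and at 0.218 in vri679 ZT14 replicate 1. In the library labelled vri679 ZT14 replicate 2 they stood at 30.1, against its label, though below both wild-type libraries at ZT14. The other vri transcripts went with the labels. They stood at 0.0444 to 3.05 in wild type and at 3.62 to 21.6 in the mutant libraries, that library included. White (w), the eye pigment transporter, was low in all 4 mutant libraries (0.0338 to 0.0819) and at 2.12 to 5.99 in wild type. The control's strain name, w1118, is that of a white mutant allele, so the higher w there goes against that name. The reason was not tested. Because of the vri levels, results at ZT14 in the mutant are given with and without each library labelled vri679 ZT14. Depth was 49.3 to 65.4 M mapped reads per library. Levels are FPKM, which divide by transcript length and library size, summed per gene and rescaled between libraries. Levels of different genes can be compared only roughly, since a trend on transcript length that differed between libraries remained (below).

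Mitochondrial ribosomal protein genes were expressed at similar, moderate levels. Their mean over the 8 libraries ran from 2.26 to 79.7 FPKM with a median of 27.6 and quartiles of 20.8 and 34.8, and 63 of the 73 lay between 15 and 50. The median over all 10122 genes tested was 14.3. The large subunit had a median of 28.3 and the small subunit 25.0. Genes with a counterpart in the bacterial ribosome (44 genes, assigned from the numbers in the symbols with mRpL47 and mRpS24 added, and so approximate) had a median of 27.4, and the other 29 had 27.6. A gene drew a median of 852.4 to 1737 reads in a library, and the least covered gene 27.2 to 133. The ranges of FPKM over the 8 libraries overlapped for every pair of neighbours in the order of levels. For the lowest pair, mRpS24 and mRpS21, they overlapped only through the 1.12 FPKM of mRpS21 in vri679 ZT2 replicate 2.

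**Figure D1:**
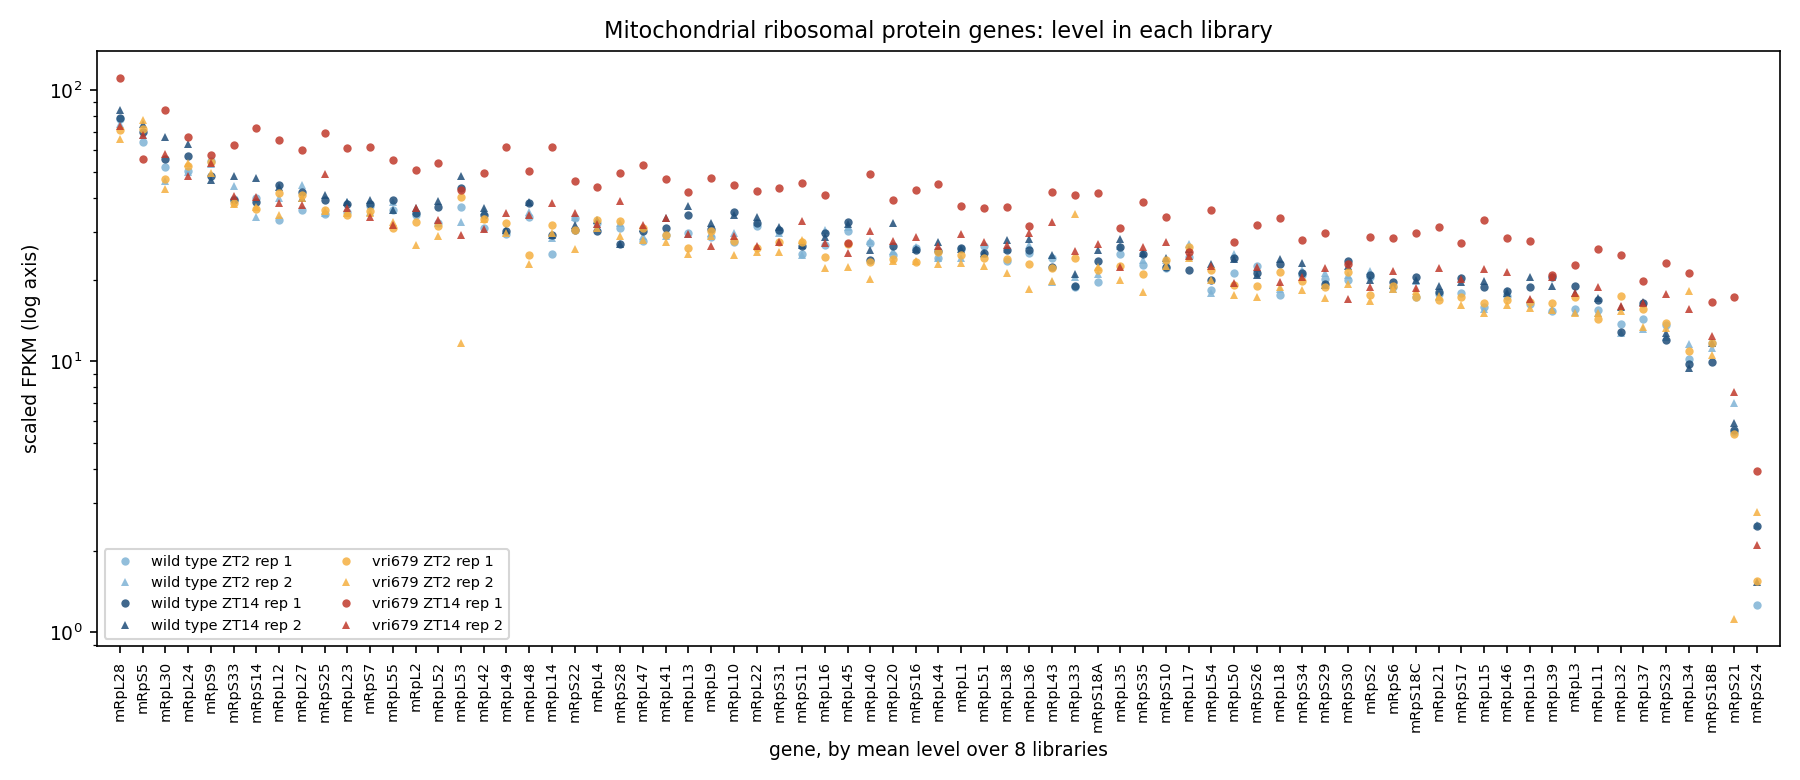
Level of each mitochondrial ribosomal protein gene (scaled FPKM, log axis) in each of the 8 libraries, with genes in order of their mean level. Colours stand for groups and symbols for replicates. Most genes lie between 15 and 50 FPKM, and vri679 ZT14 replicate 1 is the highest point for 68 of 73 genes.

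The 5 genes with the highest mean were mRpL28, mRpS5, mRpL30, mRpL24 and mRpS9. mRpL28, the counterpart of bacterial L28, stood at 78.2 and 74.8 FPKM in wild type at ZT2, 78.6 and 84.5 in wild type at ZT14, 71.2 and 65.8 in vri679 at ZT2, and 111 and 73.5 in the replicates labelled vri679 ZT14. Its highest value was in vri679 ZT14 replicate 1, and the other library of that group lay below all 4 wild-type libraries. mRpS5, whose bacterial counterpart lies at the entrance of the mRNA channel, had the opposite arrangement. Its levels in the same order were 64.3, 68.3, 70.3, 74.9, 72.1, 77.7, 55.5 and 68.3 FPKM, lowest in vri679 ZT14 replicate 1. mRpL30 averaged 56.8, mRpL24, whose bacterial counterpart sits at the exit of the peptide tunnel, 55.2, and mRpS9, whose bacterial counterpart reaches the peptidyl-tRNA site, 52.3.

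The 5 lowest were mRpS23 (mean 14.8), mRpL34 (13.4), mRpS18B (11.9), mRpS21 (6.92) and mRpS24 (2.26). mRpS24, the counterpart of bacterial S3, stood far under the rest, at 1.26, 2.48, 2.46, 1.53, 1.54, 2.78, 3.92 and 2.10 FPKM. Over 55.3% of its exon length it overlaps TBC1d7 on the opposite strand, a gene at 11.9 to 16.7 FPKM. mRpS21, the counterpart of bacterial S21, also varied between libraries, with 1.12 FPKM in vri679 ZT2 replicate 2 against 5.37 to 7.70 in 6 other libraries and 17.2 in vri679 ZT14 replicate 1, and 48.0% of its exons overlap CG8870. mRpL53 stood at 11.7 in vri679 ZT2 replicate 2 and at 29.2 to 48.1 elsewhere. It lies wholly within exons of AGO1 and CG33155 on the same strand, so the reads of these genes cannot be told apart with certainty. Values of the 8 genes with at least 20% of their exon length shared with another gene are uncertain. mRpL13 and mRpL53 share theirs with genes of the same strand. mRpL17, mRpL48, mRpS9, mRpS14, mRpS21 and mRpS24 share theirs wholly or mainly with the opposite strand, and the strand setting of the counting is not given in the sources used here.

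Genes with defined places in the ribosome lay in the same range. Around the stalk of the large subunit, where translation factors bind, mRpL12 averaged 42.8 FPKM, and mRpL10 and mRpL11 of the stalk base 31.7 and 17.3. mRpL1, whose bacterial counterpart forms the stalk on the tRNA exit side, averaged 27.1. mRpL2 and mRpL3, whose bacterial counterparts approach the peptidyl transferase centre, averaged 36.2 and 17.6. Along the peptide tunnel mRpL4 averaged 33.4, mRpL22 31.3 and mRpL23 39.8, and mRpL45, which in mammals faces the inner membrane at the tunnel exit, 28.5. mRpL44, which has a ribonuclease III-like fold in mammals, averaged 27.6. In the small subunit, mRpS7 of the head averaged 39.6 and mRpS2 20.6. mRpS29, the homologue of the human GTP-binding protein DAP3, averaged 20.9, and mRpS30, found in the large subunit in mammals, 20.8. The 3 relatives of bacterial S18 differed in level, with 25.3 for mRpS18A, 20.2 for mRpS18C and 11.9 for mRpS18B.

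The genes are spread over the genome, with 12 on 2L, 12 on 2R, 17 on 3L, 21 on 3R and 11 on X. Of the 73, 51 (69.9%) have the start of a protein-coding gene on the other strand within 500 nt of their own start, pointing away from it, against 3484 of 13986 (24.9%) of all protein-coding genes in the annotation. mRpS28 and CG5323 start 42 nt apart, mRpL48 and CG17660 41 nt, and mRpL15 and CtIP also 41 nt. The transcripts are short. Their median length, weighted by level, was 739 nt (327 to 1847), against 1836 nt over all genes tested. Only 19 of the genes have several transcripts in the tables.

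The libraries differed little in these genes, apart from vri679 ZT14 replicate 1. The summed level of the 73 genes was 1957 and 2005 FPKM in wild type at ZT2, 2075 and 2177 in wild type at ZT14, 1947 and 1822 in vri679 at ZT2, 3040 in vri679 ZT14 replicate 1, and 2107 for the library labelled vri679 ZT14 replicate 2. As log2 difference from the mean of the 4 wild-type libraries, the median over genes was -0.07, -0.02, 0.02, 0.07, -0.08, -0.16, 0.56 and 0.07 in the same order. Thus 7 libraries lay within a narrow band, and 1 library of the mutant at ZT14 lay above it. It held the highest value for 68 of the 73 genes, where 30.0% of all genes tested had their highest value in it. The exceptions were mRpL17, mRpL45, mRpL53, mRpS5 and mRpS30.

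**Figure D2:**
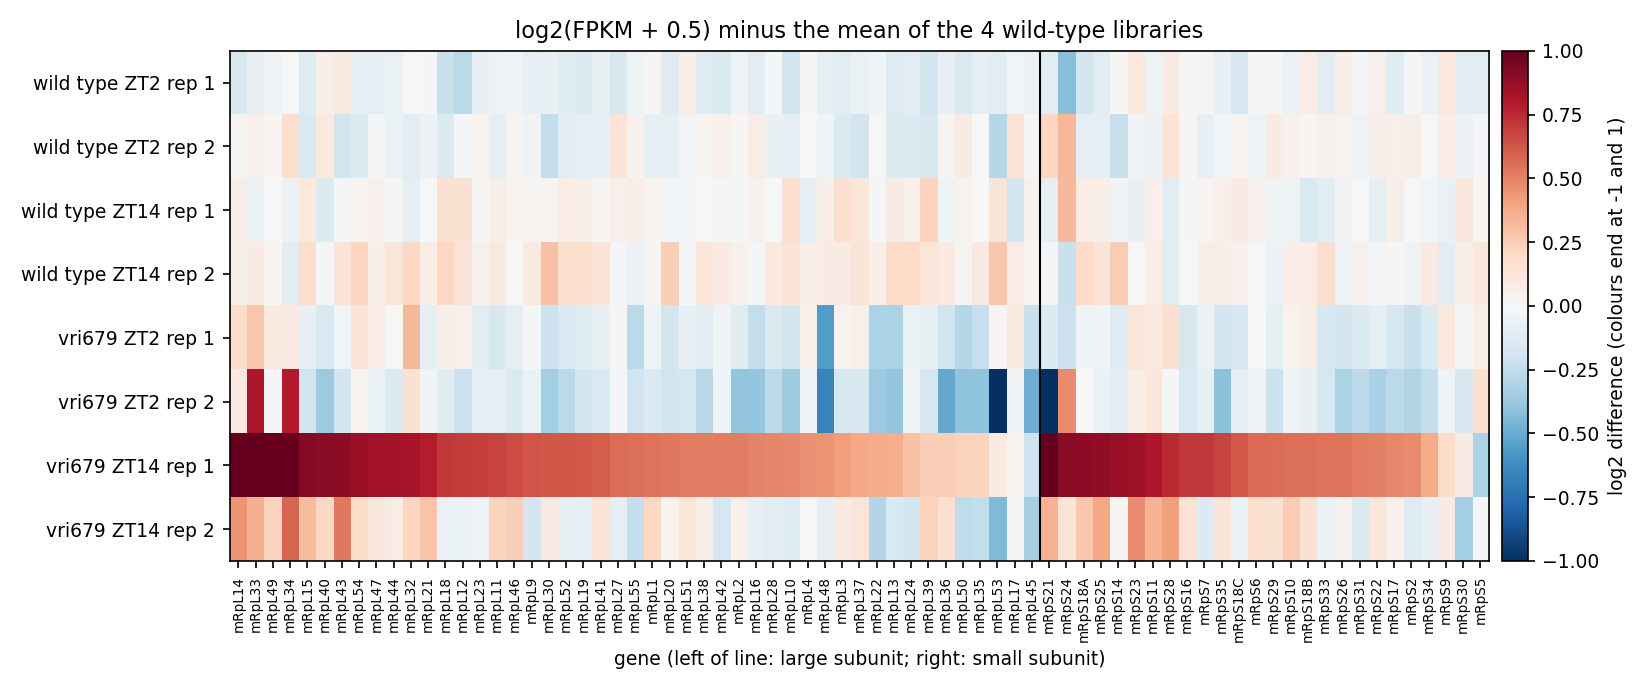
Log2(FPKM + 0.5) of each gene in each library minus the mean of the 4 wild-type libraries, with the large subunit left and the small subunit right of the line and genes ordered by their value in vri679 ZT14 replicate 1. That library is raised across both subunits (median 0.56), whereas the library labelled vri679 ZT14 replicate 2 has a median of 0.07.

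In vri679 ZT14 replicate 1 a gene stood at a median of 1.53 times its mean in the other 7 libraries, with a range of 0.783 (mRpS5) to 3.16. mRpL14, the counterpart of bacterial L14, went from 24.9 to 38.3 FPKM in the other 7 libraries to 61.6. mRpL49 was at 29.4 to 35.3 in the other 7 and at 61.8 in this one. In the library labelled vri679 ZT14 replicate 2, 27 of the 73 genes lay within the range of the 4 wild-type libraries, 30 above it and 16 below. Without vri679 ZT14 replicate 1, the coefficient of variation of a gene over the 7 libraries had a median of 9.81%, against 13.6% over all genes tested. It passed 25% for 4 genes, mRpL34, mRpL53, mRpS21 and mRpS24.

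Transcript length moved with the same contrast between these libraries. Over all genes tested, vri679 ZT14 replicate 1 minus the library labelled replicate 2 had a median log2 difference of 0.31 for transcripts up to 500 nt, 0.42 from 500 to 1000 nt, 0.28 from 1000 to 1500 nt, 0.09 from 1500 to 2500 nt, -0.24 from 2500 to 5000 nt and -0.48 above 5000 nt. The mitochondrial ribosomal protein genes in the first 3 of these bins (8, 46 and 18 genes) had medians of 0.68, 0.53 and 0.43. In 72 of the 73 (98.6%) the value was higher in replicate 1, against 56.4% of all genes tested. The share was 87.8% of all genes tested from 500 to 1000 nt. The replicates of the other groups differed by medians of -0.05 (wild-type ZT2), -0.05 (wild-type ZT14) and 0.11 (vri679 ZT2) in these genes. With each library's trend on transcript length taken out, an adjustment chosen after the data were seen, the median over the 73 genes in vri679 ZT14 replicate 1 was 0.21 in place of 0.56, with 61 genes above the wild-type mean. The library labelled replicate 2 was then at 0.04. What set the trend on length was not tested.

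**Figure D3:**
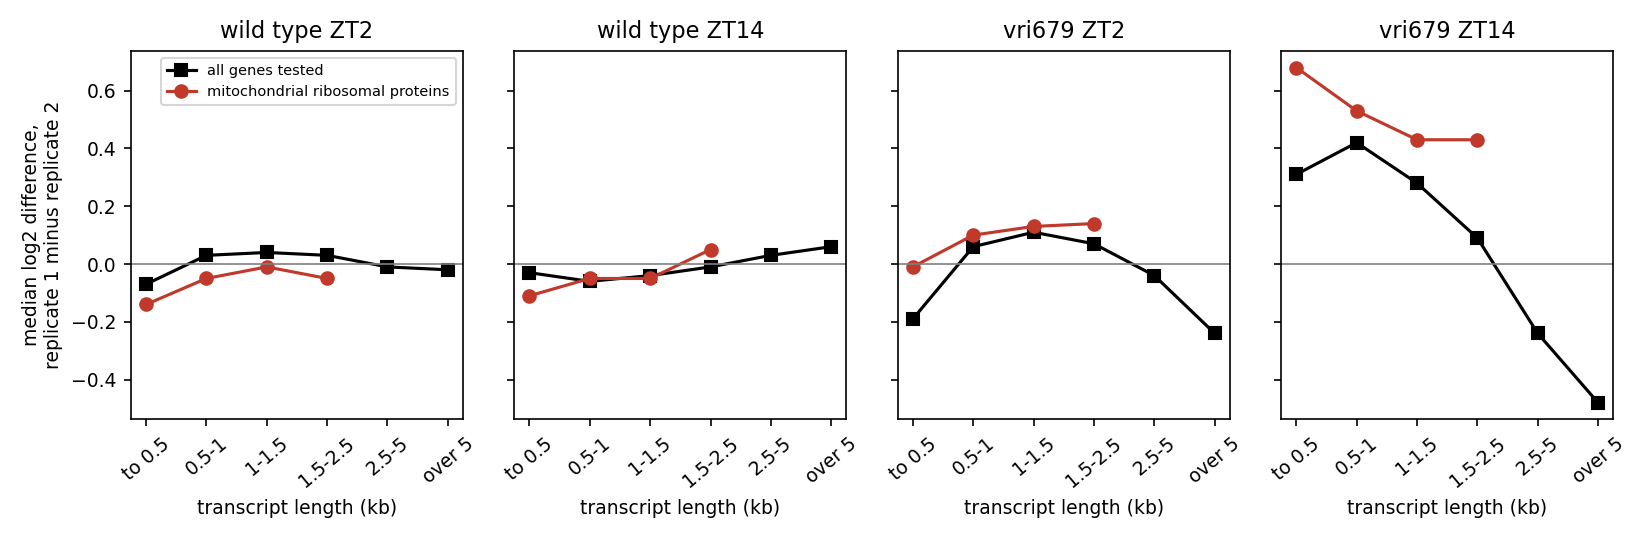
Median log2 difference between replicate 1 and replicate 2 within each group, by transcript length, for all genes tested (black squares) and the mitochondrial ribosomal protein genes (red circles). Differences of all genes stay between -0.24 and 0.11 in the other 3 groups and fall from 0.42 in the second bin to -0.48 in the last in vri679 ZT14; the last circle in each panel is 1 gene.

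Wild-type heads showed little difference between the light and the dark phase in these genes. None of the 73 passed an adjusted p of 0.05 for ZT14 against ZT2 (limma), where 6.63% of all genes tested did, and 1 had an unadjusted p under 0.05. The median log2 difference was 0.09, against 0.00 over all genes tested, with 58 genes above 0 and 15 below. In 36 genes both ZT14 libraries lay above both ZT2 libraries, 49.3% of the 73, against 32.1% of all genes tested. mRpL39, a protein specific to mitochondrial ribosomes, had the smallest p. Its levels were 15.3 and 15.6 FPKM at ZT2 and 20.4 and 19.0 at ZT14, a log2 difference of 0.34 (SE 0.10, adjusted p = 0.110). The values did not overlap between times. Leaving out either library labelled vri679 ZT14 left this difference at 0.34 and gave an adjusted p of 0.0342 or 0.0339. mRpL37, mRpL3 and mRpS9 followed, with differences of 0.26, 0.25 and -0.18 and adjusted p of 0.376, 0.419 and 0.438. mRpS28 (-0.22) and mRpL34 (-0.17) lay on the other side of the median with mRpS9.

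At ZT2 no gene passed an adjusted p of 0.05 between mutant and wild type (limma), where 2.88% of all genes tested did, and 3 had an unadjusted p under 0.05. The median log2 difference, vri679 minus wild type, was -0.05, against -0.00 over all genes tested, with 24 genes above 0 and 49 below. Both mutant libraries lay under both wild-type libraries for 28 genes, or 38.4%, against 29.3% of all genes tested.

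mRpL48, which is specific to mitochondrial ribosomes, had the smallest p at ZT2. Its FPKM were 34.1 and 35.4 for wild type, with 24.7 and 22.8 for vri679, a log2 difference of -0.54 (SE 0.17, adjusted p = 0.220). The genotypes did not overlap, and the adjusted p was 0.0151 without either library labelled vri679 ZT14, although the values compared are the same. mRpL45 differed by -0.32 (adjusted p = 0.316) and mRpL36 by -0.33 (adjusted p = 0.336). The genes farthest on the other side were mRpL33 (0.55, adjusted p = 0.405), mRpL34 (0.36) and mRpL32 (0.29), all counterparts of small bacterial proteins of the large subunit. mRpL33 stood at 29.5 ± 7.73 FPKM in vri679 (SD, n = 2), with 35.0 in replicate 2, and at 18.8 and 20.5 in wild type. mRpL34 stood at 10.9 and 18.1 against 10.2 and 11.6, also with the higher mutant value in replicate 2.

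At ZT14, 4 of the 73 genes were higher in vri679 than in wild type and none lower (limma, adjusted p under 0.05), which is 5.48%. Of all genes tested, 22.3% passed in either direction and 9.53% as higher, so the share of mitochondrial ribosomal protein genes was no larger than the background. The median log2 difference was 0.24, against -0.01 over all genes tested, with 65 genes above 0 and 8 below. In 32 genes (43.8%) both mutant libraries lay above both wild-type libraries, against 31.6% of all genes tested. The median was 0.19 in the large and 0.35 in the small subunit.

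mRpS28 encodes a small-subunit protein. It stood at 27.1 and 27.0 FPKM in wild type at ZT14, at 49.4 in vri679 ZT14 replicate 1 and at 39.0 in the library labelled replicate 2, a log2 difference of 0.69 (SE 0.14, adjusted p = 0.0166). Both mutant values lay above all 6 others, which ran from 27.0 to 32.9. The gene lies on 2R at 18614210 to 18615018, minus strand, on dm6. mRpS23, a mitochondria-specific protein of the small subunit on 2L at 13834250 to 13835072, minus strand, was at 12.0 and 12.7 in wild type and at 23.1 and 17.7 in the mutant (0.70, SE 0.15, adjusted p = 0.0189). Its values in the other 6 libraries ran from 12.0 to 13.8, so both mutant ZT14 values again lay above all of them.

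Both calls passed again without either mutant ZT14 library. In such fits that group has 1 sample, is assumed to vary like the other groups, and its own replicate difference leaves the estimate of spread, so the adjusted p can be too small. Without the library labelled replicate 2, the calls over all genes at ZT14 went from 2260 to 5188. Without vri679 ZT14 replicate 1, mRpS28 differed by 0.52 (adjusted p = 0.0201) and mRpS23 by 0.51 (adjusted p = 0.0207). Without the other library they differed by 0.86 and 0.88 (adjusted p = 0.00221 and 0.00201). With the length trend taken out the differences were 0.41 (adjusted p = 0.0135) and 0.42 (adjusted p = 0.0104). Both calls were lost when either wild-type ZT14 library was left out, with adjusted p up to 0.102 for mRpS28 and 0.114 for mRpS23.

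The other pair of calls did not pass without vri679 ZT14 replicate 1. mRpL43, a mitochondria-specific protein on 2R at 23698105 to 23699014, plus strand, was at 22.2 and 24.6 FPKM in wild type and at 42.2 and 32.6 in vri679 (0.66, SE 0.17, adjusted p = 0.0335). Without that library its difference was 0.47 (adjusted p = 0.0713). mRpL34, counterpart of bacterial L34, on 2R at 16098948 to 16099337, plus strand, was at 9.80 and 9.45 in wild type and at 21.1 and 15.6 in vri679 (0.88, SE 0.25, adjusted p = 0.0437). Its difference was 0.67 (adjusted p = 0.146) without vri679 ZT14 replicate 1 and 0.50 (adjusted p = 0.061) with the length trend taken out. The calls of mRpL43 and mRpL34 were also lost when any single wild-type library was left out. That of mRpL43 was lost without either vri679 ZT2 library as well. The lowest differences belonged to mRpL53 (-0.37, adjusted p = 0.624), mRpL45 (-0.31, adjusted p = 0.119) and mRpS5 (-0.23, adjusted p = 0.232). mRpL45 was at 32.5 and 32.1 in wild type and at 27.2 and 25.0 in the mutant, with no overlap, and with the length trend taken out its difference was -0.43 (adjusted p = 0.0139).

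How many genes were called turned on the mutant ZT14 libraries. Without vri679 ZT14 replicate 1, 3 were higher (7.90% of all genes tested) and 1 lower, and the median difference was 0.02. Without the library labelled replicate 2, 57 were higher (24.3% of all genes tested) and 1 lower, and the median was 0.54. With the length trend taken out, 6 were higher (13.2% of all genes tested) and 4 lower (16.1% of all genes tested), with a median of 0.03. By length, all genes tested had medians of 0.34, 0.26 and 0.14 in the 3 shortest bins, and the mitochondrial ribosomal protein genes 0.27, 0.30 and 0.23. Averaged over both times, no gene passed the test between genotypes (14.1% of all genes tested did, 10 of the 73 had an unadjusted p under 0.05), and the median was 0.10. mRpS23 (0.38, adjusted p = 0.0558), mRpL34 (0.62, adjusted p = 0.0585), mRpL45 (-0.31, adjusted p = 0.0596) and mRpL33 (0.61, adjusted p = 0.0666) had the smallest p.

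Within the mutant, ZT14 was compared with ZT2, a comparison that shares the ZT14 mutant libraries with the one above. Here 4 of the 73 genes rose at ZT14 and none fell (limma), again 5.48%, where 9.97% of all genes tested passed in either direction and 3.59% rose. The median log2 difference was 0.44, against -0.02 over all genes tested, with 70 genes above 0 and 3 below. Both ZT14 libraries lay above both ZT2 libraries for 52 genes (71.2%), against 27.4% of all genes tested. The medians of the large and small subunits were 0.44 and 0.45.

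The 4 genes were mRpL43, mRpL48, mRpS25 and mRpL36. mRpL48, on 2L at 1710462 to 1711465, plus strand, stood at 24.7 and 22.8 FPKM at ZT2 and at 50.1 and 34.5 at ZT14 in the mutant (0.80, SE 0.17, adjusted p = 0.0367). Its wild-type values were 34.1 to 38.7, so the library labelled vri679 ZT14 replicate 2 was at the wild-type level and the ZT2 mutant libraries under it. mRpS25, a mitochondria-specific protein on X at 14582136 to 14582982, minus strand, was at 36.2 and 35.8 at ZT2 and at 69.7 and 49.1 at ZT14 (0.69, SE 0.17, adjusted p = 0.0460), both above the wild-type values of 34.8 to 40.9.

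mRpL43 was at 22.1 and 19.8 at ZT2 and at 42.2 and 32.6 at ZT14 (0.81, SE 0.17, adjusted p = 0.0311). mRpL36, counterpart of bacterial L36, on 3L at 8124584 to 8125132, minus strand, was at 22.9 and 18.4 and then at 31.4 and 29.6 (0.56, SE 0.14, adjusted p = 0.0480). Its ZT14 values were closer together than those of the other called genes, and its wild-type values were 25.0 to 28.3. Without vri679 ZT14 replicate 1 the calls of mRpL48 (0.53, adjusted p = 0.0247) and mRpS25 (0.44, adjusted p = 0.0310) remained, and those of mRpL43 (0.63, adjusted p = 0.0554) and mRpL36 (0.51, adjusted p = 0.0837) were lost. All 4 were lost when any one wild-type library was left out, which leaves these differences as they are, and when either vri679 ZT2 library was left out. Without vri679 ZT2 replicate 1 the differences were 0.71 (mRpL36), 0.89 (mRpL43), 0.85 (mRpL48) and 0.70 (mRpS25), and without replicate 2 they were 0.41, 0.73, 0.74 and 0.68. With the replicate number as a block, mRpL36 did not pass (adjusted p = 0.0605). mRpS5 (-0.28, adjusted p = 0.199), mRpS30 (-0.04) and mRpL17 (-0.02) were the 3 genes below 0. mRpS21 had the largest difference, 1.97, and did not pass (SE 0.63, adjusted p = 0.0996). The difference was 1.04 without vri679 ZT2 replicate 2, where its level was 1.12 FPKM, and 1.41 without vri679 ZT14 replicate 1, where it was 17.2. Without vri679 ZT2 replicate 1 it was 2.90 and passed (adjusted p = 0.0304). The gene is named for its size, after its values were seen.

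Without vri679 ZT14 replicate 1, 3 genes were called higher in this comparison (2.96% of all genes tested) and the median was 0.16. Without the library labelled replicate 2, 63 were called higher (21.9% of all genes tested) and 1 lower, and the median was 0.72. With the length trend taken out, 19 were higher (7.54% of all genes tested) and none lower, and the median was 0.26. In transcripts from 500 to 1000 nt the mitochondrial ribosomal protein genes had a median of 0.46, and all genes tested 0.20. The difference between mutant and wild type in the time difference was tested directly. No gene passed (8.25% of all genes tested did, 11 of the 73 had an unadjusted p under 0.05), and the median was 0.34, with 69 genes above 0 and 4 below. mRpS28 (0.72, SE 0.20, adjusted p = 0.0724), mRpL40 (0.97, adjusted p = 0.103), mRpS23 (0.64, adjusted p = 0.107) and mRpL43 (0.71, adjusted p = 0.116) had the smallest p, and mRpS5 (-0.41), mRpS30 (-0.21) and mRpL24 (-0.15) lay farthest on the other side. The median was 0.03 without vri679 ZT14 replicate 1, with 2 genes called higher (4.07% of all genes tested). It was 0.61 without the library labelled replicate 2, with 51 called higher (19.7% of all genes tested) and 1 lower.

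**Figure D4:**
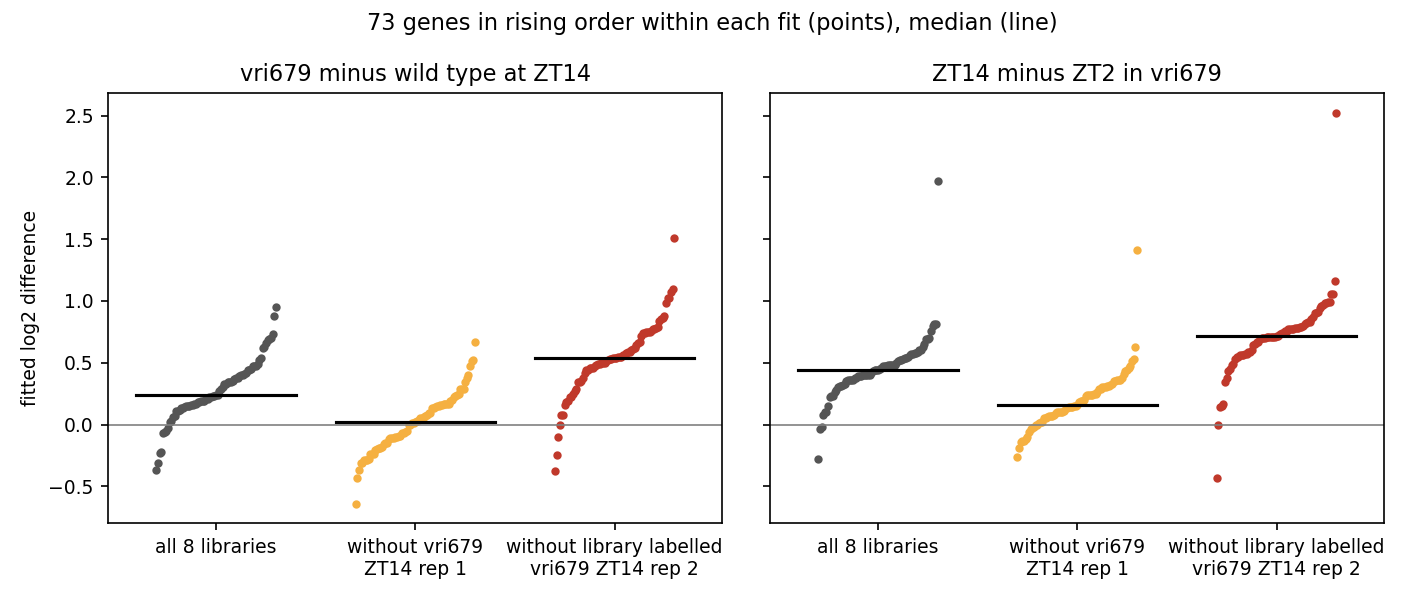
Fitted log2 difference of each of the 73 genes for vri679 minus wild type at ZT14 (left) and for ZT14 minus ZT2 in vri679 (right), from all 8 libraries and without each mutant ZT14 library. The median (line) is 0.24, 0.02 and 0.54 on the left and 0.44, 0.16 and 0.72 on the right.

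Some transcript shares within the genes separated the libraries more sharply than the levels did. mRpL27, counterpart of bacterial L27, on 2L at 4458595 to 4459638, minus strand, has a pair of main transcripts that differ by 36 nt at the 5′ end. The longer one made up 97.0 and 94.8% of the gene's FPKM in wild type at ZT2, 96.4 and 99.7% in wild type at ZT14, 0.880 and 0.837% in vri679 at ZT2, 95.5% in vri679 ZT14 replicate 1 and 0.794% in the library labelled replicate 2. So the library labelled replicate 2 resembled vri679 at ZT2, and replicate 1 resembled wild type. The gene's summed level did not follow that split, at 36.2 to 44.5 in 7 libraries and 59.9 in vri679 ZT14 replicate 1.

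A transcript of mRpL14 gave the reverse arrangement. The shorter of its pair of transcripts was listed at 0% in the 4 wild-type libraries, at 11.4 and 5.25% in vri679 at ZT2, at 11.4% in vri679 ZT14 replicate 1 and at 0% in the library labelled replicate 2. Shares were assigned by the authors' transcript assembly software among overlapping transcripts, and no test was made on them. Shares also ranged over more than 20 percentage points in mRpL17, mRpL23, mRpS6, mRpS10, mRpS16, mRpS21 and mRpS30.

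The related genes were described in the same way. technical knockout (tko), the mitochondrial S12 protein, and bonsai, the mitochondrial S15 protein, belong to the same ribosome under other symbols. tko stood at 30.0, 31.9, 34.4, 41.8, 30.8, 29.1, 57.8 and 40.6 FPKM, and bonsai at 26.7, 23.1, 29.0, 31.4, 26.7, 24.8, 45.0 and 31.1, both highest in vri679 ZT14 replicate 1. Neither passed the test in any comparison. Of 9 mitochondrial translation factors none passed in any of the 6 comparisons either. mRF1, the release factor, was nearest at ZT14, with 5.81 and 5.60 in wild type and 8.58 and 7.06 in vri679 (0.42, adjusted p = 0.0514).

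Of 19 genes for mitochondrial aminoacyl-tRNA synthesis, 1 was called between genotypes, at both times. ValRS-m, the valyl-tRNA synthetase (listed as CG5660), was at 2.44 and 2.50 FPKM in wild type at ZT2 and 4.10 and 4.42 in vri679 (0.68, SE 0.11, adjusted p = 0.0240), and at 2.65 and 2.83 against 3.86 and 3.79 at ZT14 (0.42, adjusted p = 0.0378). All 4 mutant values lay above all 4 wild-type values, and the pair labelled vri679 ZT14 was alike. Among 17 genes of mitochondrial DNA and RNA, scully (scu), a dehydrogenase that is also a subunit of mitochondrial RNase P, was lower in vri679 at ZT2, with 84.1 and 62.6 against 158 and 151 (-1.09, SE 0.21, adjusted p = 0.0446). At ZT14 JhI-1, a tRNA 3′-processing enzyme, was at 5.09 and 6.41 against 2.88 and 3.38 (0.78, adjusted p = 0.0163), and mtDNA-helicase at 2.44 and 2.06 against 1.33 and 1.32 (0.59, adjusted p = 0.0368).

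The 85 cytosolic ribosomal protein genes tested, of 93 listed, gave other values by time of day. All 85 had a lower fitted level at ZT14 than at ZT2 in wild type (median -0.49), whereas the mitochondrial ribosomal protein genes had a median of 0.09 there, and no gene of either list passed that test. At ZT14 the genotype medians were 0.56, with 13 of the 85 called higher (9.53% of all genes tested were), and 0.24. In vri679 ZT14 replicate 1 against the wild-type mean, the cytosolic list had a median of 0.65 and the 70 nuclear respiratory chain genes tested, of 90 listed, 0.32. These lists are short as well, with median lengths of 684 and 686 nt. Replicate 1 minus the library labelled replicate 2 gave 0.69 and 0.56.

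**Figure D5:**
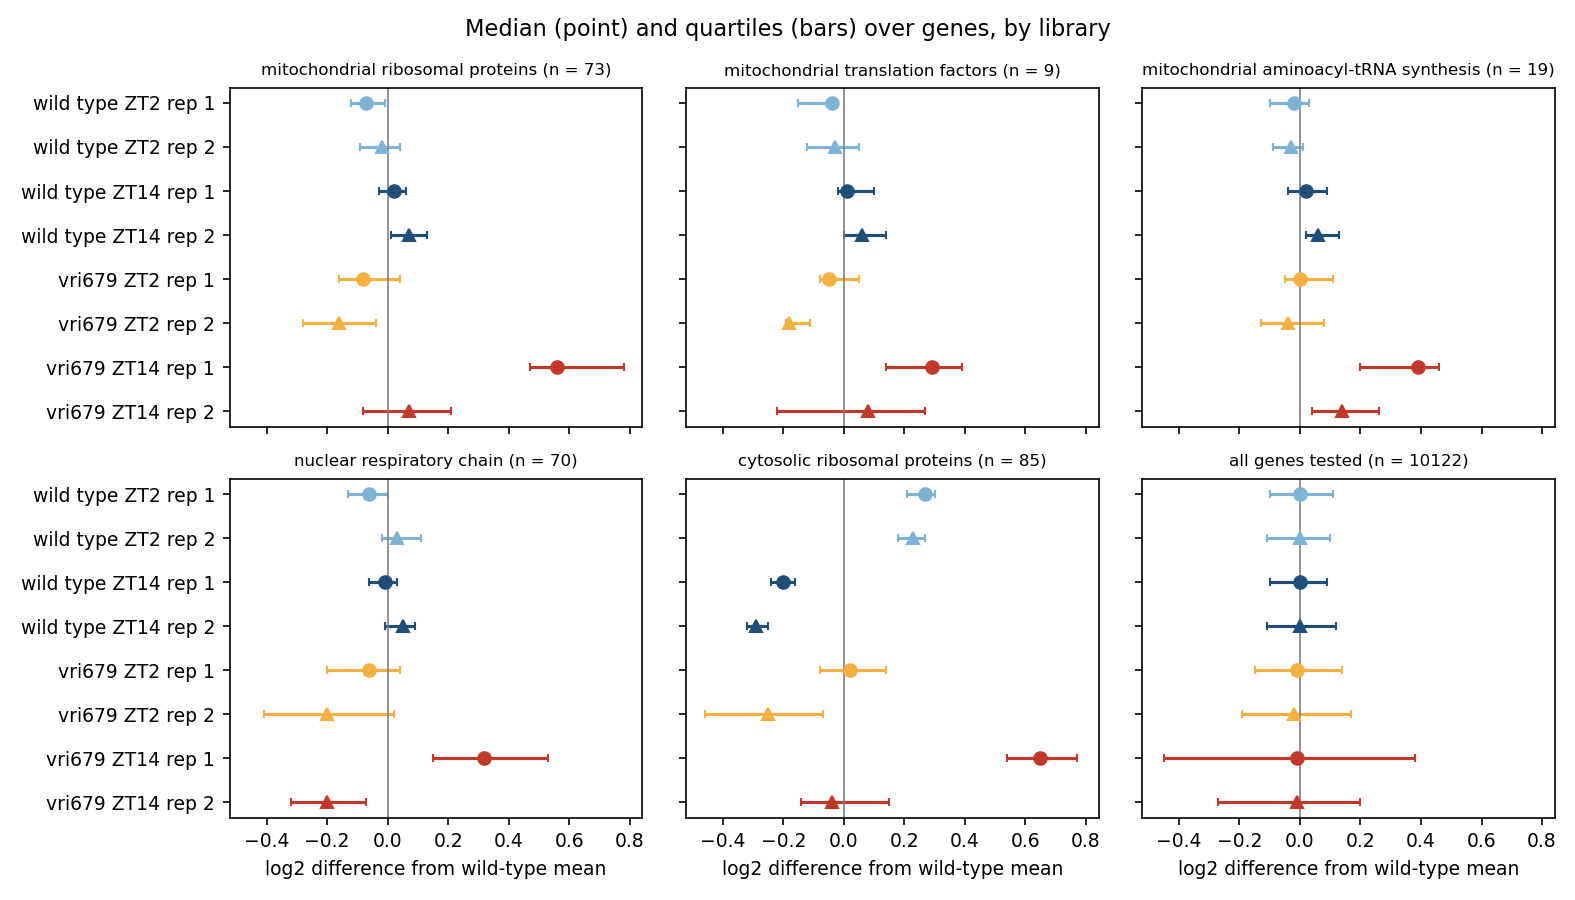
Median (point) and quartiles (bars) over genes of the log2 difference from the wild-type mean in each library, for the mitochondrial ribosomal protein genes, related lists and all genes tested. In vri679 ZT14 replicate 1 the medians of the mitochondrial and cytosolic ribosomal protein genes are 0.56 and 0.65, and in wild type the cytosolic genes separate ZT2 (0.27 and 0.23) from ZT14 (-0.20 and -0.29).

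Markers of tissues in the head also moved at ZT14, where 1295 of all 10122 genes tested were called lower in vri679 and 965 higher. Of 11 muscle genes tested, 7 were lower in vri679, with summed FPKM of 10250 and 11270 for wild type, and of 5510 and 5120 for the mutant libraries. Of 6 glial genes 4 were lower, with sums of 1339 and 1264 against 743.9 and 757.3. Of 5 hemocyte genes 2 were lower, with sums of 137.6 and 152.4 against 64.34 and 60.75. Of 7 fat body genes 3 were lower and 1 higher, with sums of 7490 and 3614 against 2753 and 1763. None of 9 neuronal genes was called, and of 8 photoreceptor genes 3 were higher and 1 lower, with sums of 26320 and 22980 against 42700 and 41650. The neuronal sums were 864.0 and 833.0 against 703.5 and 905.7. Both mutant ZT14 libraries had similar sums in the muscle, glial, hemocyte and photoreceptor lists, and differed more in the neuronal and fat body lists. The part of these tissues in the levels reported here was not tested. In whole heads fewer cells of a type and less RNA per cell cannot be told apart.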

How the data were processed

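For each of 8 libraries the deposited table gives FPKM and a coverage signal for 35411 RefSeq transcripts, per the file headers. STAR 2.6.1d and StringTie, on dm6, are the tools in the submitters' processing notes. The deposited coverage was used only for depth. FPKM was summed per gene symbol and libraries were brought to 1 scale by median-of-ratios factors from 12078 genes. A gene was tested when its FPKM reached 1 in 2 or more libraries (10122 genes), in 1 limma 3.58.1 fit (R 4.3.3, statmod 1.5.0, eBayes with trend and robust options) of the 4 groups on log2(FPKM + 0.5), a scale that understates changes of low genes. All groups share 1 spread per gene, although the vri679 ZT14 replicates differed most, so p-values with that group can be too small. P-values, 2-sided, were Benjamini-Hochberg adjusted across the tested genes within each of 6 comparisons, and measure the spread between samples that may be technical replicates. The fit was run on simulated data with 1 spread per gene in all groups and no trend on length. Its behaviour with a pair as unlike as the vri679 ZT14 libraries was not tested.

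Members and lists were chosen with earlier results of these data known. Genes named are those called, otherwise the 4 with the smallest p, the 5 highest and lowest, up to 3 farthest from the median, genes with a fixed role, and up to 3 per related list. Positions come from the tables (dm6), and 72 of 73 genes have the same start and end in the Ensembl BDGP6.54 annotation. Symbols of related genes were matched through RefSeq accessions (93.2% of transcripts matched). Promoter sequences and the mitochondrial ribosomal RNAs were not analysed here. Same-numbered replicates showed at most a weak shared deviation (correlation 0.27, between the ZT2 groups), and samples were not paired. Alternatives were pseudocounts of 0.1 and 1, filters, scalings, eBayes options, a replicate block, each library left out and, added later, removal of each library's lowess trend on transcript length.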

Additional observations from a re-analysis of the deposited data

How the results depend on the processing

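Of 6 medians over the 73 genes, those for genotype at ZT14, time in vri679 and genotype by time moved most when a vri679 ZT14 library was left out. Ranges over all left-out libraries were 0.02 to 0.54, 0.16 to 0.72 and 0.03 to 0.61. These moves were larger than the spread between replicates pooled over groups (SD 0.21). That SD includes the vri679 ZT14 pair, whose median difference was 0.51, against -0.05 (wild-type ZT2), -0.05 (wild-type ZT14) and 0.11 (vri679 ZT2). The moves and the SD thus come largely from the same pair, so setting them side by side decides nothing. Removing the length trend gave 0.03 for genotype at ZT14 and 0.11 for genotype by time. The sign of the median changed where it was small. Averaged over times it went from 0.10 to -0.05 without vri679 ZT14 replicate 1 and to -0.02 with the length trend removed, and for genotype at ZT2 from -0.05 to 0.02 without rescaling and 0.04 with equal totals. No gene called in the main fit changed direction. Other genes did, such as mRpL10 for genotype at ZT14. Its difference was 0.34 without the library labelled vri679 ZT14 replicate 2 and -0.28 without vri679 ZT14 replicate 1. When a library was left out, calls over all genes tested moved widely, so such moves were not particular to the 73 genes. Counts called among the 73 moved more than the medians. Over left-out libraries they ran from 0 to 58 (genotype at ZT14), 0 to 39 (averaged), 0 to 64 (time in vri679), 0 to 52 (genotype by time), 0 to 2 (time in wild type) and 0 to 1 (genotype at ZT2). Without rescaling 12 of the 73 were called for genotype at ZT14 (2540 of all 10122 genes tested) and 6 averaged (1676). With equal totals 11 (2244) and 6 (1558) were called, with 13 for time in vri679 (1107) and 1 for genotype by time (933). With quantile normalization the counts were 10 (2545), 4 (1543), 15 (1293) and 1 (1029). Without a filter 2 and 1 were called for genotype at ZT14 and time in vri679 (2044 and 850 of 15357 genes tested). Without eBayes trend and robust options 2 were called for the latter (963 of all genes tested). With the length trend removed the counts were 1 (genotype at ZT2, 490 of all genes tested), 10 (genotype at ZT14, 2970) and 8 (averaged, 2129). For the remaining comparisons they were 1 (time in wild type, 1115), 19 (time in vri679, 1785) and 2 (genotype by time, 1521). The causes were not tested. Equal totals moved the median of all genes for genotype by time to -0.13, where these genes were at 0.21. Of all genes called for genotype at ZT14, 42.7% were higher, against 56.2% without rescaling and 55.9% with quantile normalization.

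With the replicate number as a block, 4 genes were called for genotype at ZT14 (2263 of all genes tested). For time in vri679 5 were called (1033 of all genes tested), namely mRpL15, mRpL43, mRpL48, mRpS25 and mRpS35, so without mRpL36. Deviations of same-numbered samples correlated at -0.143 to 0.27 between groups, highest between the ZT2 groups of wild type and vri679. Whether those samples shared a batch was not tested. Depth limits the lowest values, since the least covered gene had 27.2 reads in its lowest library.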
